A study of Mus musculus with 8 samples.

Results

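The core circadian clock genes were followed in 2 progenitor populations from the bone marrow of normal mice and of mice lacking the transcription factor Nfil3. The set was named by symbol as Arntl, Clock, Per1, Per2, Cry1, Cry2, Nr1d1, Nr1d2, Bhlhe40 and Bhlhe41, and a probe set counted as a member if it carried one of these symbols alone. By that rule 9 of the 10 genes had a probe set, with 16 probe sets out of 28898 that carried 1 symbol and covered 17097 genes. Nr1d1 was not analysed here. The main result was that Arntl RNA was higher in the later progenitor than in the earlier one. No clock gene passed the test for an effect of the Nfil3 knockout in the fit to all 8 arrays. In that fit 0 of the 11583 genes tested passed it in either population, Nfil3 itself included, so this is not particular to clock genes.

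The clock is a feedback loop of transcription that runs in most cells of the body. The proteins of Arntl (also called BMAL1) and Clock pair up and activate genes through E-boxes in their promoters, among them the Period, Cryptochrome, Nr1d and Bhlhe40 and Bhlhe41 genes. The Period and Cryptochrome proteins then block that pair, Bhlhe40 and Bhlhe41 compete for the E-boxes, and the REV-ERB proteins encoded by Nr1d1 and Nr1d2 repress Arntl at elements that the activating receptor ROR alpha, encoded by Rora, also binds. Nfil3 is itself an output of this loop and represses genes through D-boxes, which the activators Dbp, Tef and Hlf also bind.

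All cells were sorted from lineage-depleted marrow of mice that carry an Id2-GFP reporter, whose green fluorescence tracks transcription of Id2, and went straight from the sorter into lysis. The 4 groups were wild type (WT) or Nfil3 knockout (KO) all-lymphoid progenitors (ALP), which still give rise to all lymphocytes, and WT or KO prepro NK cells (preproNK), a later progenitor on the way to natural killer (NK) cells. Each group had 2 one-colour Affymetrix arrays, and the replicate number stands for 1 of 2 processing dates. The sources used here do not give the knockout allele, the age and number of mice per sample or the hour at which marrow was taken, so p-values measure the spread between these samples only.

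The WT preproNK replicate 2 array stood apart before any comparison. The SD of its deposited log2 values was 1.39, where the other 7 arrays had 1.55 to 1.88. It held 310 of the 11583 tested genes at log2 values of 8 or more, where the others held 682 to 1498. Where leaving it out moved a member's mean population difference or preproNK knockout difference by over 1.5 times, or changed its call, that value is also given. Such fits keep 1 WT preproNK array, so that group adds nothing to the estimate of spread behind their SE and adjusted p. Nfil3 itself read 6.89 and 5.50 in WT and 3.41 and 4.15 in KO among ALP, and 4.75 and 4.74 in WT and 3.84 and 3.57 in KO among preproNK. Every KO value was below every WT value, although it is unknown whether the probe set covers the removed sequence. Marker genes went with the labelled populations. Of the early lymphoid progenitor markers with a probe set, 4 of 5 were called lower in preproNK, among them Dntt with a log2 difference of -6.00 (SE 0.27, limma adjusted p = 0.000286). Of the NK and innate lymphoid progenitor markers, 5 of 6 were called higher, among them Tbx21 at 4.19 (SE 0.31, adjusted p = 0.00135). Of all 11583 genes tested, 186 were called lower and 205 higher. Tbx21 was above the array median on 0 ALP arrays, and Cd34 and Rag2 on 0 preproNK arrays. Those markers passed the filter through 1 population alone, and Id2, also called, is the gene of the reporter. These counts are thus only a check of the labels.

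The elements through which the loop acts are shown first, because Arntl, the called gene, is controlled through ROR response elements and other genes of the loop through E-boxes. RefSeq promoter windows, from 250 bases before to 50 bases after a start in build GRCm38.p6, were found for 8 of the 10 genes. Per2 and Bhlhe40 had none. The extended ROR response element in capitals in the Arntl sites below, with any base as its next-to-last letter, was searched on both strands and chosen after the Arntl window was seen. It was present in 20 of 32851 windows (0.0609%), and Arntl was the only clock gene of the 8 with it. The end of the second site overlaps the shorter ROR core AGGTCA, which 16.3% of all windows hold and which was also found for Clock, Nr1d2 and Per1. Positions are those of the first matched letter, counted from the RefSeq start, and coordinates are those of the 30 printed bases around a match. The Arntl sites lie in the same window on the plus strand, at positions -10 and 27, printed from chr7:113207492-113207521 and chr7:113207528-113207557. The Nr1d2 core is at position -77 on the minus strand, printed from chr14:18239166-18239195. Capitals mark the matched letters.
Arntl first site: attggtcggAAAGTAGGTTAgtggtgcgac
Arntl second site: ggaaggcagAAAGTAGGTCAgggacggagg
Nr1d2: gattggaagaagAGGTCAggaccgctcgtt
The palindromic E-box CACGTG was found in 7.15% of all windows and for 3 of the 8 clock genes, Per1 (position -166, plus strand, chr11:69098771-69098800), Cry1 (position -60, minus strand, chr10:85185097-85185126) and Bhlhe41 (position -153, minus strand, chr6:145865556-145865585).
Per1: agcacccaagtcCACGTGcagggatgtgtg
Cry1: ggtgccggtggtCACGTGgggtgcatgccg
Bhlhe41: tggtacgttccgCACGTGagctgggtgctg
The D-box letters TTANGTAA, to which Nfil3 binds, were in 2.32% of windows and in 0 of the 8 clock genes. A clock gene was counted if any of its windows matched, and the 8 genes had 12 windows. Counts of genes and shares of windows are thus unlike measures. These matches describe letters in short windows and say nothing about binding in these cells.

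Arntl (Entrez gene 11865, chr7:113178471-113314126), the activator of the loop, was higher in preproNK than in ALP. Its brightest probe set read log2 values of 3.20 and 4.30 in WT ALP and 3.06 and 3.16 in KO ALP, against 5.90 and 5.31 in WT preproNK and 6.02 and 5.76 in KO preproNK. All 4 preproNK arrays lay above all 4 ALP arrays, and 3 of the 4 ALP values were below the median of their array over all probe sets, which serves here as a mark of values near background. The log2 difference between preproNK and ALP, averaged over genotypes, was 2.32 (SE 0.32, 95% interval 1.57 to 3.07) and passed the test (limma, adjusted p = 0.011). ALP values below their array's median were also raised to it, a floor chosen after seeing the data. The population means of Arntl then differed 3.24-fold, a value without an interval and no lower limit for single arrays or other probe sets. In bulk samples fewer cells that express a gene and less RNA per cell cannot be told apart.

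Within each genotype the difference in Arntl was 2.78 (SE 0.46, adjusted p = 0.0317) in KO, which passed, and 1.86 (SE 0.46, adjusted p = 0.267) in WT, which did not. The difference between these effects was 0.92 (SE 0.65, adjusted p = 1). On the first processing date the population difference was 2.70 in WT and 2.96 in KO, and on the second it was 1.02 and 2.60. The smallest of these 4 values sets the WT preproNK array that stood apart against the WT ALP array in which Arntl was highest among ALP. Without the WT preproNK replicate 2 array the mean difference was 2.46 (SE 0.32, adjusted p = 0.00416). Leaving out KO ALP replicate 1, KO ALP replicate 2, KO preproNK replicate 1 or KO preproNK replicate 2 ended the call, with adjusted p of 0.069, 0.0584, 0.0952 and 0.069 and differences of 2.25 to 2.38. T cell markers moved with it, since 4 of 4 with a probe set were called higher in preproNK, against 1.77% of all genes tested. The log2 of the summed linear level of these markers ran from 6.50 to 6.91 in ALP and from 8.06 to 11.8 in preproNK. On each ALP array 2 of the 4 were above the median, and on each preproNK array all 4. Cd3e and Cd3g were above it on 0 ALP arrays. They passed the filter through preproNK alone, so the count of called markers is no support for a direction. RNA of these markers does not by itself show that T cells were present. The part of cells that express them in the Arntl difference was not tested.

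Clock, the partner of Arntl, had no called difference between the populations in the fit to all 8 arrays. Its brightest probe set read 4.27 and 4.06 in WT ALP and 4.24 and 4.11 in KO ALP, against 5.12 and 3.85 in WT preproNK and 5.86 and 5.01 in KO preproNK. The ALP arrays stood close together and 3 of the 4 preproNK arrays lay above them, while WT preproNK replicate 2 lay below. The mean difference between preproNK and ALP was 0.79 (SE 0.36, 95% interval -0.05 to 1.62, adjusted p = 0.387). It was 1.10 (SE 0.29, adjusted p = 0.0656) without WT preproNK replicate 2, and was called when a replicate block was added as well (1.00, SE 0.24, adjusted p = 0.0242). Within WT and KO it was 0.85 and 1.61 on the first date and -0.21 and 0.90 on the second.

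**Figure D1:**
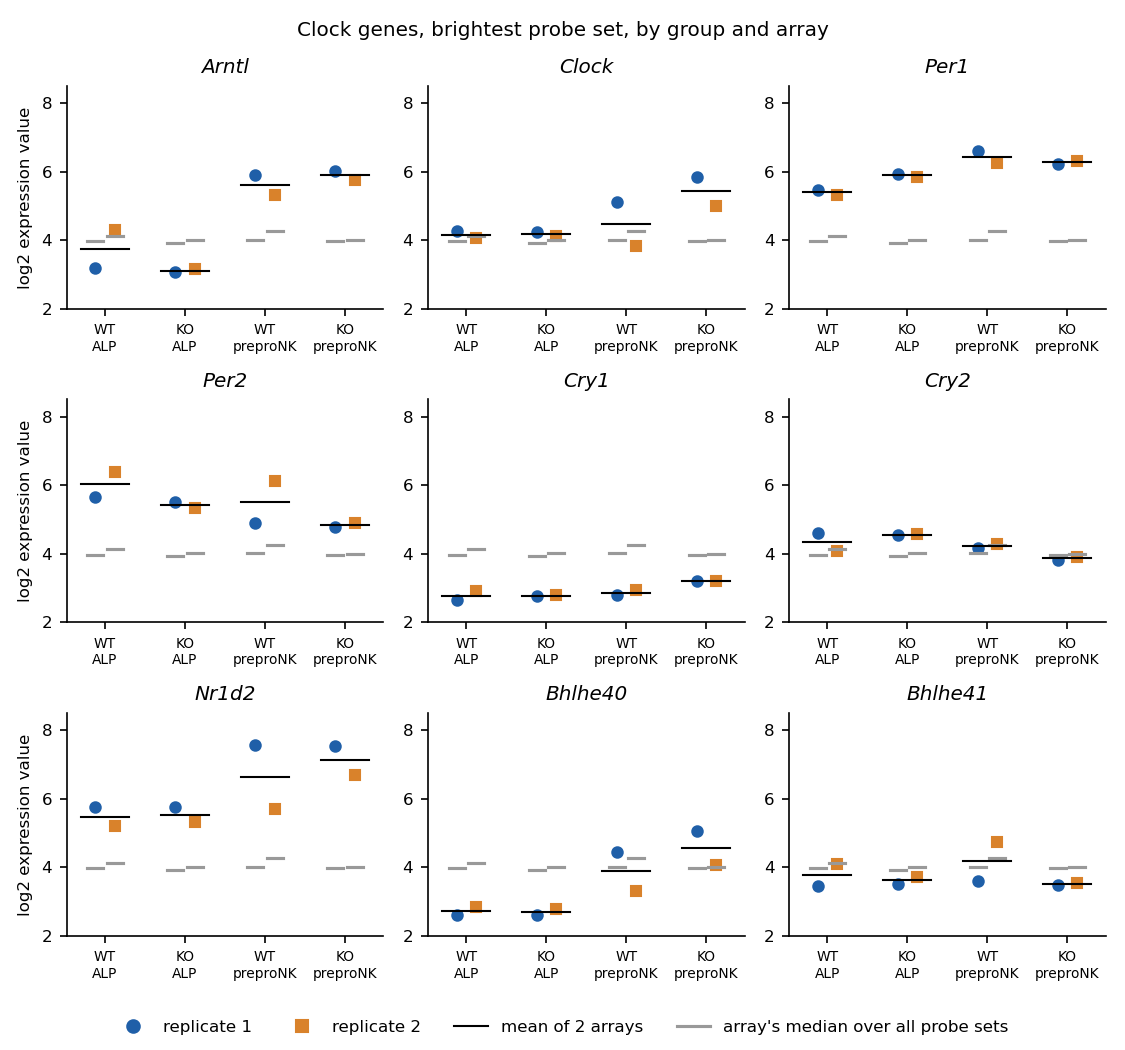
Log2 expression value (y axis) of the brightest probe set of each of the 9 clock genes in the 4 groups (x axis), with circles for replicate 1, squares for replicate 2, black lines for the mean of 2 arrays and grey ticks for each array's median over all probe sets. Arntl lies at 3.06 to 4.30 in ALP and 5.31 to 6.02 in preproNK, and Cry1 lies below the grey ticks on every array.

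The negative arm that acts on Arntl was represented by Nr1d2, which encodes REV-ERB beta. Nr1d2 (Entrez gene 353187, chr14:18204056-18239106) read 5.77 and 5.19 in WT ALP and 5.75 and 5.33 in KO ALP, against 7.56 and 5.71 in WT preproNK and 7.54 and 6.69 in KO preproNK. Apart from WT preproNK replicate 2, which lay between the ALP values, every preproNK array lay above every ALP array. The mean difference between preproNK and ALP was 1.36 (SE 0.45, a 2.57-fold difference) and was not called (adjusted p = 0.187), but was called when the replicate number entered as a block (SE 0.29, adjusted p = 0.0295). Without WT preproNK replicate 2 it was 1.83 (SE 0.32) and also called (adjusted p = 0.0143). The values within WT and KO were 1.78 and 1.79 on the first date and 0.52 and 1.36 on the second.

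Rora, the activator that shares the Arntl element, was near background in all ALP arrays, at 3.88, 3.49, 3.44 and 3.36 in WT replicates 1 and 2 and KO replicates 1 and 2. In preproNK it read 9.58 and 4.32 in WT and 9.33 and 8.89 in KO. The groups did not overlap, but the array that stood apart held a value just above its median while the other 3 were bright. All 4 ALP values were below their array medians, so Rora passed the filter through preproNK alone. With the floor the population means differed 16.2-fold, again a value without an interval. The fitted mean difference was 4.49 (SE 0.97, adjusted p = 0.0527), and 4.02 with that floor in the fit (SE 1.00, adjusted p = 0.095). It was 5.80 (SE 0.26, adjusted p = 8.97e-05) without that array. It was 3.17 (SE 0.26, adjusted p = 0.00103) without WT preproNK replicate 1. The call was also made with a replicate block (SE 0.79, adjusted p = 0.0154). With all probe sets of Rora averaged it was 1.94 (SE 0.46, adjusted p = 0.0675), so its probe sets did not give the same size.

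**Figure D2:**
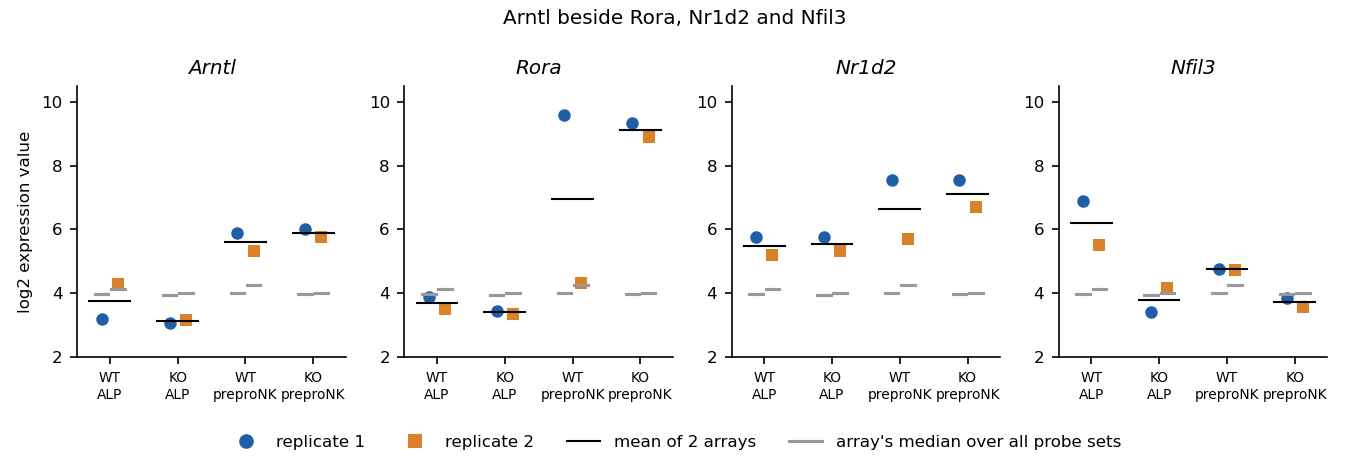
Log2 expression value (y axis) of Arntl, Rora, Nr1d2 and Nfil3 in the 4 groups (x axis), marked as in the plot of all 9 genes. WT preproNK replicate 2 holds 4.32 for Rora, against 8.89 to 9.58 on the other preproNK arrays, and 5.31 for Arntl, against 5.76 to 6.02.

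Per1, a repressor of the loop that also answers quickly to outside signals, was measured well above the array medians everywhere. It read 5.47 and 5.33 in WT ALP and 5.93 and 5.85 in KO ALP, against 6.61 and 6.24 in WT preproNK and 6.23 and 6.33 in KO preproNK. All preproNK arrays lay above all ALP arrays, with a gap of 5.93 to 6.23 between them. The mean difference of 0.71 (SE 0.24, 95% interval 0.15 to 1.27, a 1.63-fold difference) was not called (adjusted p = 0.207). It was 0.80 (SE 0.23, adjusted p = 0.0906) without WT preproNK replicate 2, and was called when a replicate block was added as well (0.79, SE 0.22, adjusted p = 0.0456). Immediate early genes, which respond to handling of cells as Per1 can, were read beside it. Of the 10 listed, 5 were tested and 0 were called by limma in either direction, against 3.38% of all genes tested. None had an unadjusted p under 0.05, where 1668 of all genes tested did. The median difference of the 5 was 0.50 against -0.01 over all genes tested. Junb, Egr1 and Dusp1 were above the array median on 0 ALP arrays. They passed the filter through preproNK alone, so this median is no support for a direction. The log2 of the summed level of the 10 listed genes was 6.85 to 7.26 in ALP and 7.22 to 7.51 in preproNK. The part of the immediate early genes in the Per1 values was not tested.

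Per2, the other Period repressor measured, had its lower values in preproNK. It read 5.67 and 6.40 in WT ALP and 5.50 and 5.34 in KO ALP, against 4.90 and 6.12 in WT preproNK and 4.77 and 4.91 in KO preproNK. The 2 highest values were those of the replicate 2 arrays of WT ALP and WT preproNK, which also had the narrowest ranges of values, and without them ALP lay above preproNK. The mean difference between preproNK and ALP was -0.55 (SE 0.35, 95% interval -1.35 to 0.25, adjusted p = 0.612) and negative in both genotypes on both dates, from -0.77 to -0.27. Without WT preproNK replicate 2 it was -0.86 (SE 0.28, adjusted p = 0.121).

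The Cryptochromes, which block the activator pair together with the Period proteins, gave little signal. Cry2 read 4.62, 4.08, 4.54 and 4.57 in ALP and 4.17, 4.29, 3.83 and 3.91 in preproNK, in the order WT replicates 1 and 2 and KO replicates 1 and 2. The populations overlapped, both KO preproNK values and that of WT ALP replicate 2 were below their array medians, and the mean difference of -0.40 (SE 0.25, 95% interval -0.98 to 0.18) was not called (adjusted p = 0.603). Cry1 read 2.65 to 3.20 and was below the array median on all 8 arrays, so it was not tested and no fold is given. Its highest values, 3.19 and 3.20, were those of KO preproNK.

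Bhlhe40, a repressor that competes for E-boxes and is also known from activated lymphocytes, was near background in ALP and measurable in most preproNK arrays. It read 2.62 and 2.84 in WT ALP and 2.60 and 2.78 in KO ALP, against 4.45 and 3.32 in WT preproNK and 5.05 and 4.06 in KO preproNK. The populations did not overlap, and WT preproNK replicate 2 was again the lowest preproNK array and below its median. The mean difference was 1.51 (SE 0.36, adjusted p = 0.0719), called with a replicate block (SE 0.31, adjusted p = 0.0254) and without WT preproNK replicate 2 (1.79, SE 0.31, adjusted p = 0.0136). Without WT preproNK replicate 1 it was 1.23. With values below the array median set to that median in the fit the difference was 0.45 (adjusted p = 0.585). With only ALP at that floor the population means differed 1.16-fold. Bhlhe41, its relative, read 3.44 to 4.10 in ALP and 3.50 to 4.74 in preproNK, was above the array median only on WT preproNK replicate 2 and was not tested.

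Between the populations, then, 1 of the 7 tested clock genes was called, Arntl, with higher values in preproNK. Of all 11583 genes tested, 3.38% were called in this comparison and 1.77% were called higher. With a replicate block 3 of 7 were called, all higher (Arntl, Nr1d2 and Bhlhe40), against 7.36% of all genes, with 3.77% higher. The same 3 genes were called without WT preproNK replicate 2, where 7.5% of all genes were called, with 4.81% higher. The 4 preproNK arrays lay above the 4 ALP arrays for 3 of the 7 genes (Arntl, Per1 and Bhlhe40) and below them for 0. Of all genes tested, 4.52% had all preproNK arrays above, 6.97% had them all below, and 11.5% had no overlap in either direction. Arntl and Bhlhe40 were above the array median on 1 and 0 ALP arrays. They passed the filter on dim probe sets only with their preproNK values. The counts of called genes, the counts without overlap and the median difference are thus no support for a direction of the 7 genes as a set. The median difference was 0.79 over the 7 genes and -0.01 over all genes tested. In KO alone 1 of 7 was called (Arntl), against 1.75% of all genes and 3.88% with the block. In WT alone 0 of 7 were called by limma, against 0.095% and 0.578%, with 2 of 7 at an unadjusted p under 0.05. Of all 11583 genes tested, 852 were under 0.05 there.

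**Figure D3:**
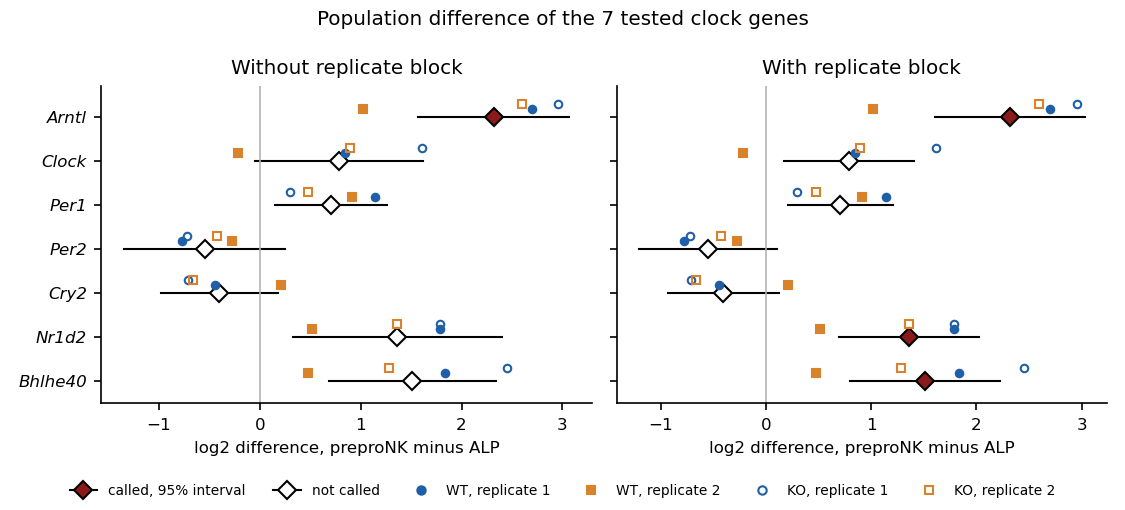
Log2 difference between preproNK and ALP (x axis) for the 7 tested clock genes (y axis), without and with a replicate block. Diamonds with lines are the mean over genotypes with its 95% interval from limma, filled where called, and small points are the differences within each genotype and processing date. Arntl at 2.32 is filled on both sides, Nr1d2 at 1.36 and Bhlhe40 at 1.51 only with the block, and the WT replicate 2 point is the lowest for Arntl, Clock, Nr1d2 and Bhlhe40.

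The probe sets of a gene did not give the same size of difference. The second, dimmer Arntl probe set read 3.32, 3.49, 3.39 and 3.54 in ALP and 3.93, 3.83, 4.25 and 3.75 in preproNK. Its populations did not overlap either, but it was above the array median on 1 of 8 arrays only and its difference was 0.50 (SE 0.17, adjusted p = 0.31 over all probe sets), against 2.32 (SE 0.29, adjusted p = 0.0266) for the brighter one in the same fit. With both averaged the Arntl difference was 1.41 (SE 0.25, adjusted p = 0.0259). The 4 Clock probe sets differed by 0.22 to 0.79 and all in the same direction, and 2 of them were above the median on 0 arrays. The dimmer Nr1d2 probe set, above the median on 0 arrays, differed by 0.76 (SE 0.29) against 1.36 for the brighter. Both Per2 probe sets had negative differences, -0.55 and -0.26, and those of Bhlhe41 were -0.01 and 0.15. Per1, Cry1, Cry2 and Bhlhe40 had 1 probe set each. A further probe set that is annotated to Per2 and another gene was left out by the rule.

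**Figure D4:**
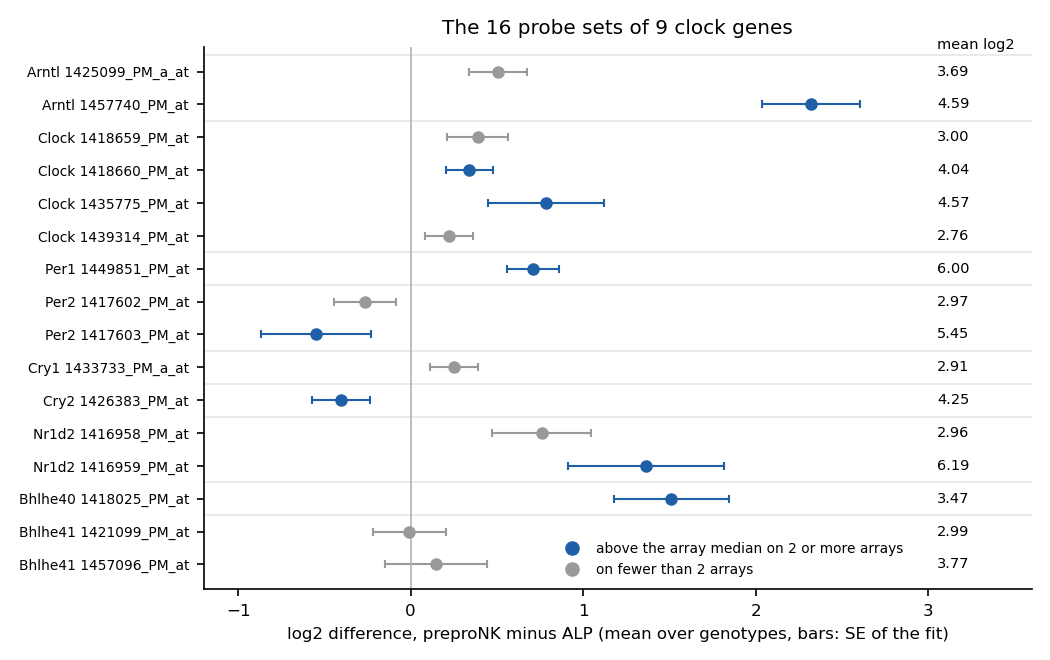
Log2 difference between preproNK and ALP (x axis, with the SE of a fit over all probe sets) for each of the 16 probe sets (y axis), with the mean log2 value over 8 arrays at the right. Blue points are above the array median on 2 or more arrays and grey ones on fewer. The Arntl probe sets lie at 0.50 and 2.32.

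For loss of Nfil3, no clock gene was called in either population in the fit to all 8 arrays. In ALP 0 of 7 were called by limma, against 0% of all genes tested, and 0 of 7 had an unadjusted p under 0.05. Differences between KO and WT ran from -0.63 for Arntl (SE 0.46, 95% interval -1.69 to 0.43) to 0.49 for Per1 (SE 0.34, 95% interval -0.30 to 1.28). For Arntl both KO readings and 1 of the 2 WT readings were below their array medians, so the size of its difference is uncertain. The Arntl value came from -0.13 on the first date and -1.13 on the second, and that of Per1 from 0.47 and 0.52. All adjusted p were 1. Only 5 of the 11583 genes had an unadjusted p under 0.05 here, and 44 with a replicate block. Both are far fewer than a threshold of 0.05 would pass without any effect. The 4 groups share 1 estimate of the spread, and the fit called little of anything in ALP. The 0 of 7 is thus no sign that the knockout had no effect there.

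In preproNK 0 of 7 were called, with 0 of 7 at an unadjusted p under 0.05, and again 0% of all genes were called. With a replicate block 0.0863% of all genes and 0 of 7 clock genes were called, with 1 of 7 at an unadjusted p under 0.05. Of all 11583 genes tested, 625 were under 0.05 without the block and 2122 with it. Clock had the most positive difference, 0.95 (SE 0.51, 95% interval -0.23 to 2.13, adjusted p = 0.613), with 0.74 on the first date and 1.16 on the second. It was called (1.59, SE 0.45, adjusted p = 0.0429) without WT preproNK replicate 1, when the array that stood apart was the sole WT preproNK sample and 2532 of all genes were called. Without WT preproNK replicate 2 it was 0.31 (SE 0.45, adjusted p = 1). Per2 had the most negative, -0.67 (SE 0.49, 95% interval -1.80 to 0.47, adjusted p = 0.613), with -0.12 and -1.22 on the 2 dates, and -0.053 (SE 0.43, adjusted p = 1) without WT preproNK replicate 2. Arntl differed by 0.29 (SE 0.46, 95% interval -0.78 to 1.35), Per1 by -0.15 (SE 0.34), Cry2 by -0.36 (SE 0.35), Nr1d2 by 0.48 (SE 0.63) and Bhlhe40 by 0.67 (SE 0.51). Without WT preproNK replicate 2, Per1 differed by -0.33, Cry2 by -0.30 and Bhlhe40 by 0.11. For Nr1d2 the whole difference lay in the second date, 0.99, against -0.02 on the first, and without WT preproNK replicate 2 it was -0.44. The Arntl difference without that array was -0.0064. The T cell markers stood beside these values with summed log2 levels of 9.87 and 8.06 in WT and 11.8 and 11.7 in KO preproNK. Of these markers 4 of 4 had an unadjusted p under 0.05, as did 625 of all genes tested, with 0 called by limma. Their part in the clock gene values was not tested. In the fit to all 8 arrays the intervals of all members other than Per1 reach beyond 1 log2 unit in at least 1 direction, so a change of that size is not excluded for them.

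The effect of the knockout averaged over both populations was also not called for any of the 7 (differences from -0.64 to 0.48), and neither was the interaction of genotype and population (-0.64 to 0.94). In both, 0% of all genes were called by limma, and 0 of 7 clock genes had an unadjusted p under 0.05. Of all genes tested, 352 had one for the mean effect and 183 for the interaction.

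The 2 processing dates were compared because levels of clock genes depend on the time of day, and the hour is not known. The replicate number had no called effect on any of the 7 genes by limma, nor on any of all genes tested (0%), but 3819 of these and 1 of the 7 had an unadjusted p under 0.05. Nr1d2 was lower on the second date in all 4 groups, by -0.58 in WT ALP and -0.42 in KO ALP, against -1.85 in WT preproNK and -0.84 in KO preproNK, with a fitted difference of -0.92 (SE 0.29, adjusted p = 0.101). Clock was lower in all 4 groups too, from -1.27 to -0.13, with a fitted difference of -0.62 (SE 0.27, adjusted p = 0.152). The median over all genes was -0.19, in the same direction. Arntl did not keep a sign, with 1.10 and 0.10 in WT and KO ALP and -0.58 and -0.26 in WT and KO preproNK, and Per2 was higher on the second date in 3 of 4 groups, by up to 1.23. The SD of log2 values on replicate 2 was 1.55 in WT ALP, 1.66 in KO ALP and 1.39 in WT preproNK. On replicate 1 it was 1.78, 1.88 and 1.79, and in KO preproNK it was 1.82 on both. Processing date, hour of collection, animal and this narrower range of array values cannot be told apart.

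**Figure D5:**
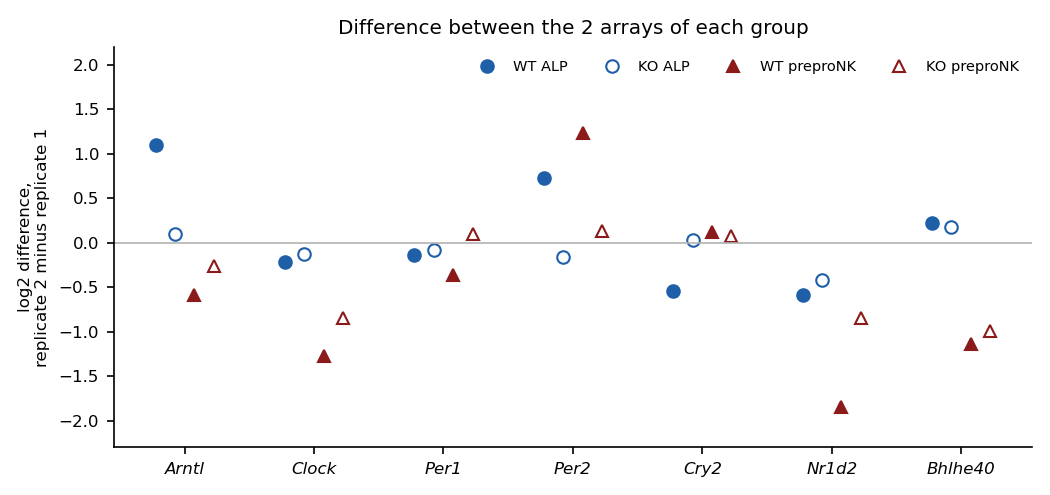
Log2 difference between replicate 2 and replicate 1 (y axis) within each of the 4 groups for the 7 tested clock genes (x axis). Nr1d2 and Clock lie below 0 in all 4 groups, and WT preproNK has the lowest Nr1d2 value, -1.85.

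Other genes of the clock pathway did not follow Arntl as a group. Of the 20 listed, 17 had a probe set and 13 were tested. In preproNK 0 of the 13 were called higher and 2 lower, with a median difference of -0.13. Of all 11583 genes tested, 205 were called higher and 186 lower. Timeless, which in mammals serves mainly at replication forks, read 7.80, 7.54, 7.93 and 7.79 in ALP and 5.12, 4.91, 5.90 and 6.64 in preproNK. It fell by 2.12 (SE 0.27, adjusted p = 0.0084) on the log2 scale. Csnk1e, a kinase that marks Period proteins for decay, read 6.83 to 7.29 in ALP and 5.08 to 6.17 in preproNK and fell by 1.31 (SE 0.28, adjusted p = 0.0492). With a replicate block Tipin, the partner of Timeless, was called lower as well (-1.44, SE 0.25, adjusted p = 0.0142), and Rora higher. For KO against WT 0 of 13 were called in either population by limma, against 0% of all genes tested. In ALP 0 had an unadjusted p under 0.05, and Gsk3b, a kinase, and Npas2, a relative of Clock, had the smallest, with differences of 0.48 (SE 0.57) and -0.30 (SE 0.44). In preproNK 1 did, Timeless with a difference of 1.25 (SE 0.39, adjusted p = 0.613). Ciart, a repressor of the activator pair, followed at -0.91 (SE 0.48, adjusted p = 0.613). Of all genes tested, 5 in ALP and 625 in preproNK had an unadjusted p under 0.05.

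The factors that share the D-box with Nfil3 were not called either. Dbp, Tef and Hlf differed between preproNK and ALP by 0.85 (SE 0.27), 0.08 (SE 0.24) and 0.84 (SE 0.30), and Hlf differed between KO and WT preproNK by -1.11 (SE 0.42, adjusted p = 0.613).

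Arntl had the widest range of the tested clock genes over the 8 arrays, 2.96. The genes nearest to its pattern, by the root mean square difference of log2 values centred on each gene's own mean over 8 arrays, were Chd7 (0.287), which encodes a chromatin remodeller, Gm20559 (0.289) and Fbxo27 (0.354). Chd7 read 5.17 to 6.10 in ALP and 6.99 to 8.67 in preproNK, and its lowest preproNK and highest ALP values lay on the same arrays as those of Arntl. All points share the same 8 arrays. Chd7 was chosen by its likeness to Arntl on them, so these shared extremes are no support for a link.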

How the data were processed

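The deposited table gives log2 expression for each probe set. The submitters' processing notes name RMA and Partek, and the sources used here do not give versions or settings. RMA removes background, normalizes arrays against each other and summarises the probes. RNA was amplified before labelling, per the labels' protocols, which can add spread between arrays. Arrays carry no read depth, so their number limits precision. Of 45141 probe sets, 28898 had 1 symbol, 551 several and 15692 were not listed with a gene; 28689 matched RefSeq by Entrez number.

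For each gene the probe set of highest mean was used, and the gene was tested if this was above the array's median on at least 2 of 8 arrays, which left 11583 genes. Group means (4 residual degrees of freedom) were fitted with limma 3.58.1 in R 4.3.3 and p-values adjusted by Benjamini and Hochberg over all genes tested, two-sided, with a call at an adjusted p under 0.05. The script was tested on simulated data.

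The series design ties each replicate number to a processing date, so the numbers pair the samples. The deviations of replicate 1 arrays correlated across genes at 0.149 to 0.807 in every pair of groups. Alternatives were the replicate block, no filter, averaged or separate probe sets, repeated quantile normalization, a floor, array weights and leaving out each array. All members were named, with up to 4 called genes of a fixed pathway list, or else the 2 with the smallest p, and the 3 genes most like the member of widest range. Members and lists were chosen with earlier results of these data known.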

Additional observations from a re-analysis of the deposited data

Results flagged for a closer look

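Arntl had lower values in KO than in WT on both dates in ALP (-0.13 and -1.13) and higher ones on both dates in preproNK (0.13 and 0.44). The interaction was 0.92 (SE 0.65, limma adjusted p = 1) and did not pass the test. Without WT preproNK replicate 2 the preproNK difference was -0.0064. In ALP both KO readings and 1 of the 2 WT readings were below the array medians. Bhlhe40 likewise had values of -0.01 and -0.06 in ALP and 0.60 and 0.75 in preproNK, with an interaction of 0.71 (SE 0.72, adjusted p = 1). Without WT preproNK replicate 2 its preproNK difference was 0.11. Both its ALP values are differences between readings below the array medians.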

How the results depend on the processing

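The number of clock genes called was the same under all alternatives for KO against WT in ALP, the mean knockout effect, the interaction and the replicate number (0 in each). Between the populations it was 1, 3 with a replicate block, 0 to 3 when 1 array was left out and 5 (Arntl, Nr1d2, Bhlhe40, Clock and Per1) with the block and without WT preproNK replicate 2, an alternative added after seeing the data. Within KO it was 1, 0 with probe sets averaged or all fitted, 3 with array weights, 0 to 2 when 1 array was left out and 4 with the block and without that array. Within WT it was 0, and 2 in that last setting. For KO against WT in preproNK it was 0, and 0 to 1 when 1 array was left out. The block changed no other call of a clock gene. All genes called between the populations numbered 391, and 852 with the block, 869 without WT preproNK replicate 2, 119 without WT ALP replicate 1, 221 without WT ALP replicate 2, 81 without KO ALP replicate 1, 120 without KO ALP replicate 2, 1058 without WT preproNK replicate 1, 35 without KO preproNK replicate 1 and 69 without KO preproNK replicate 2. The cause was not tested.

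Signs turned only for differences that were not called. For KO against WT in ALP, Clock was -0.047 with probe sets averaged, -0.023 with the floor and -0.094 to 0.12 with 1 array left out, Nr1d2 -0.030 and Bhlhe40 0.047 after quantile normalization and -0.23 to 0.35 and -0.15 to 0.075 with 1 array left out, and Cry2 -0.063 to 0.48. In preproNK, the block without WT preproNK replicate 2 gave -0.16 for Arntl, -0.13 for Nr1d2 and -0.32 for Rora, and leaving out 1 array gave -0.0064 to 0.58, -0.44 to 1.41 and -0.47 to 4.79, and -0.33 to 0.034 for Per1. Within WT, leaving out 1 array gave -0.32 to 0.95 for Clock, -1.14 to 0.091 for Per2 and -0.39 to 0.15 for Cry2. For the replicate number, Arntl was -0.11 with the floor and -0.25 to 0.31 with 1 array left out, Cry2 -0.14 to 0.077, and Per1 0.25 after quantile normalization. Values near the array median, as for Bhlhe40, Cry1, Cry2 and Bhlhe41, limit what can be read from their differences.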
